A study of Homo sapiens with 6 samples.

Results

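The genes described here make, recycle and use the thiol antioxidants of the cell, glutathione and thioredoxin, or control the transcription factor NRF2. They were taken from a list of 44 gene symbols, which held the glutathione enzymes, the thioredoxin and peroxiredoxin enzymes, quinone reductases, superoxide dismutases, catalase, glutaredoxins, and NRF2 with its regulators. Each gene was read by the probe set with the highest mean log2 value over all arrays among those annotated to that symbol alone. This gave 43 measured members among the 19775 genes of the arrays, and PRDX5 was not analysed here.

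The cells were SW-1990, a human pancreatic adenocarcinoma line established from a spleen metastasis, and their RNA was read on 6 Affymetrix U133 Plus 2.0 arrays. The sh-PRLR cells carried a short hairpin RNA (shRNA), delivered by lentivirus, that targets the prolactin receptor gene PRLR, and the sh-Ctrl cells carried a scrambled one. Both were selected with puromycin for more than a week, and each group had 3 arrays, given as biological replicates by the labels. The labels do not say whether the infected cells were pooled or grown from single clones, nor how many hairpins were used.

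Glutathione is a tripeptide made in 2 steps, by glutamate-cysteine ligase and then by glutathione synthetase. It is spent by glutathione peroxidases, which reduce peroxides, and by glutathione S-transferases, which attach it to reactive compounds, and its oxidised form is reduced again by glutathione reductase with NADPH. Thioredoxin, kept reduced by thioredoxin reductases, serves the peroxiredoxins in a parallel system. Many of these enzymes are induced by NRF2 (gene NFE2L2), which is held back and marked for degradation by KEAP1, pairs with small MAF proteins on antioxidant response elements, and competes there with BACH1. NRF2 is frequently active in pancreatic cancer cells.

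In sh-PRLR cells, both subunit genes of glutamate-cysteine ligase, glutathione reductase, sulfiredoxin, cytosolic thioredoxin and its reductase were higher than in sh-Ctrl cells, whereas GPX1, GSTM2, PRDX2, PRDX4 and GLRX2 were lower. A member is said to have risen or fallen where limma, with a variance that depends on the level, gave an adjusted p under 0.05 over all 19775 genes. Of the genes just named, TXN, PRDX2, PRDX4 and GLRX2 lost this call without some single arrays, and all lost it with limma's default settings. Of the 43 members 12 rose (27.9%), against a background of 3.34% of all genes, and 5 fell (11.6%), against 4.32%. The members were chosen with earlier results of these data known, so these shares are a description and not independent support. Calls in either direction covered 7.66% of all genes. The mean was higher in sh-PRLR for 23 members, as for 49.9% of all genes. Nearly all members were bright, 42 of 43 above the median gene level of 7.23. Among the genes above that level 6.43% rose and 8.17% fell. Among the 977 genes at or above the median level of the members, 11.4% rose and 7.06% fell. The median log2 difference of the members, sh-PRLR minus sh-Ctrl, was 0.0015, against -0.0013 over all genes. Differences between members ran from -0.48 to 0.96, so no change exceeded 2-fold. All 3 sh-PRLR arrays lay above all 3 sh-Ctrl arrays for 15 members (34.9%), where 11.7% of all genes did so, and below them for 12 (27.9%), where 14.1% did. The shares of all genes include dim genes. For arrays that do not overlap, shares among genes as bright as the members were not worked out.

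With limma's default variance settings 0 of the 43 members passed, while 16 had an unadjusted p under 0.05, 10 higher and 6 lower. Their smallest adjusted p in that fit was 0.0614, and 0.0202% of all genes were called. The level-dependent variance was chosen with both counts known. Of the 17 called members, 9 stayed called when any 1 array was left out: GCLC, GCLM, GSR, SRXN1, MGST1, TXNRD1, MAFG, GPX1 and GSTM2. The other 8 lost the call without at least 1 array, as given with their values. The count of rises was 7 without sh-PRLR replicate 2 and 8 to 11 without any other array. The count of falls was 5 without sh-PRLR replicate 1, 3 without sh-Ctrl replicate 1 and 2 without any other array. Centring each array on its median, in place of the deposited scale, took the call from 11 of the 17 and kept it in GCLC, GCLM, GSR, SRXN1, OSGIN1 and GSTM2.

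**Figure D1:**
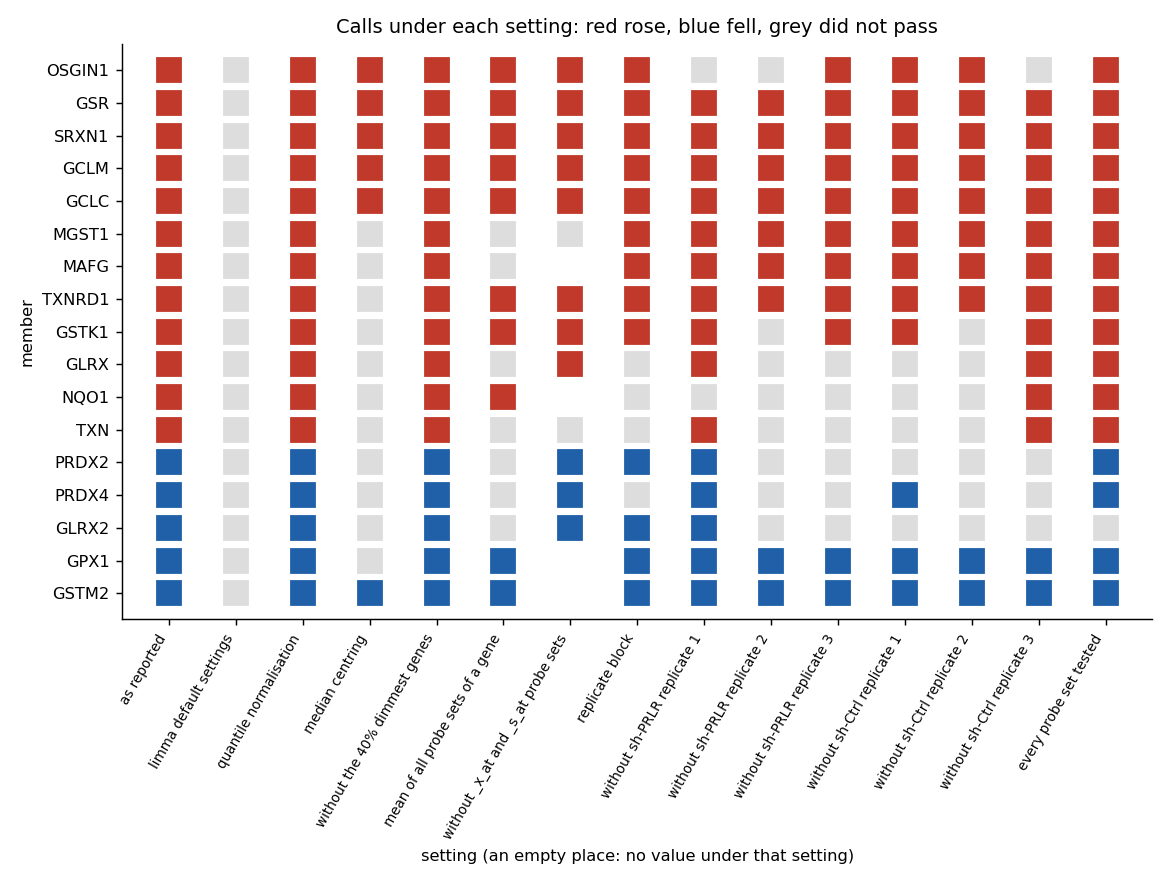
Call of each of the 17 members that passed (rows) as reported and under 14 other settings (columns), red for higher and blue for lower in sh-PRLR, light grey where the test was not passed and empty where the setting gives no value. The column of limma's default settings is grey throughout, and GCLC, GCLM, GSR and SRXN1 are red in every other column.

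**Figure D2:**
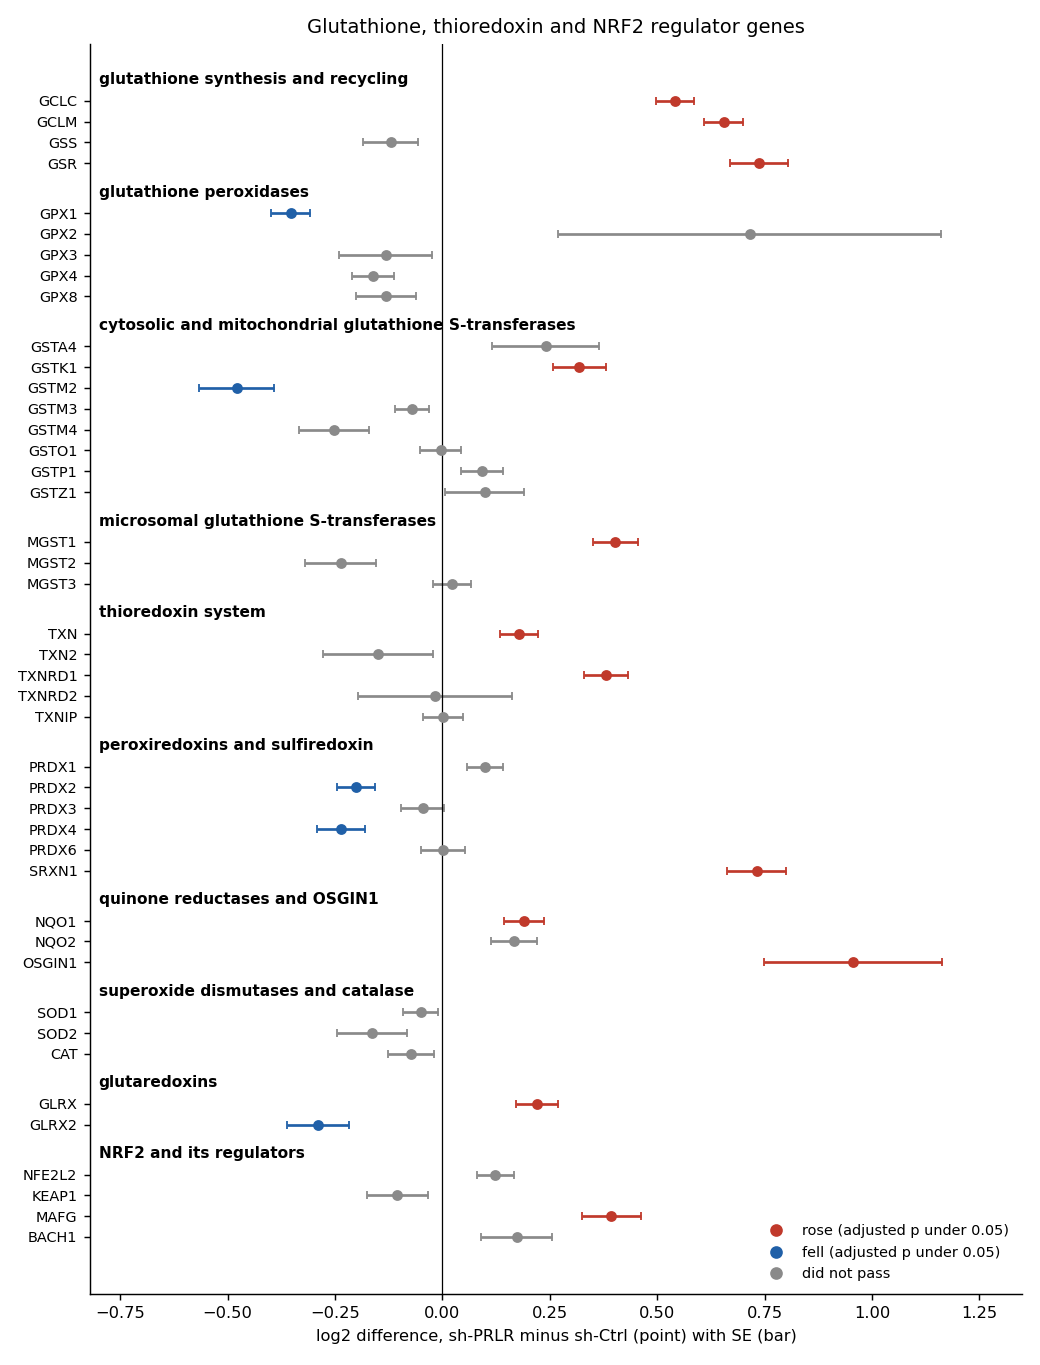
Log2 difference between sh-PRLR and sh-Ctrl cells for the 43 measured members, grouped by enzyme class, with the standard error of limma as bars. Red points rose, blue points fell and grey points did not pass; the rises are at 0.18 to 0.96 and the falls at -0.48 to -0.20.

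PRLR itself, averaged over its 7 probe sets, was at log2 values of 3.94, 4.38 and 4.19 in sh-PRLR cells and 5.23, 5.03 and 4.79 in sh-Ctrl cells. The mean was 4.17 ± 0.22 in sh-PRLR and 5.02 ± 0.22 in sh-Ctrl (SD, n = 3 each), and an exact permutation test (two-sided) gave p = 0.1, its smallest possible value with 3 arrays in each group. No single PRLR probe set passed limma, and all of them were dim. Epithelial markers were present, 6 of 7 above the median gene level, with a summed log2 level of 16.47 to 16.52 in sh-PRLR and 16.47 to 16.57 in sh-Ctrl. CDH1, E-cadherin, was the sole marker called, and fell by 0.17 on the log2 scale (limma adjusted p = 0.0284). Of the fibroblast markers 1 of 7 lay above the median gene level, of the leukocyte markers 0 of 4, and of the endothelial markers 1 of 4. The log2 ratio of 3' to 5' GAPDH control probe sets, a sign of RNA integrity, was 0.09 to 0.20 in sh-PRLR and 0.19 to 0.28 in sh-Ctrl. That of the ACTB control probe sets was much higher on every array, at 2.99 to 3.11 in sh-PRLR and 3.05 to 3.36 in sh-Ctrl. The part of either ratio in the results was not tested.

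The letters of the antioxidant response element can be seen in the promoters of some members. Sequences are from RefSeq, build GRCh38.p14, and show the 150 bases before an annotated transcription start, 5′ to 3′ on the strand of the gene. Capitals mark matches to the core of the element, TGACNNNGC, or to its reverse complement. GCLM and TXNRD1 are shown because they are the members that rose and hold the motif in the 250 bases searched, and GSTP1, GPX2 and KEAP1, chosen after the values were seen, because they hold it and did not pass the test. TXNRD1 has 2 annotated starts with a match.
GCLM, chr1:93909431-93909580, minus strand: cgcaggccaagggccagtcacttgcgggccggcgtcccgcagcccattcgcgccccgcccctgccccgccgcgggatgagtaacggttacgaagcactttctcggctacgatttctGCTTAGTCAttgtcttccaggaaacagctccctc
TXNRD1, chr12:104215629-104215778, plus strand: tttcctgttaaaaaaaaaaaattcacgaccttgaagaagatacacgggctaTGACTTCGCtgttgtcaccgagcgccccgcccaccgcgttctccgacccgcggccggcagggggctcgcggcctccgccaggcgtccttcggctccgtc
TXNRD1, chr12:104286882-104287031, plus strand: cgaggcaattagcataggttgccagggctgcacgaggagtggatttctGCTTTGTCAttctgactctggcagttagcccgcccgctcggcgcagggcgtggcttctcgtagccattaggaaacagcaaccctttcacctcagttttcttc
GSTP1, chr11:67583662-67583811, plus strand: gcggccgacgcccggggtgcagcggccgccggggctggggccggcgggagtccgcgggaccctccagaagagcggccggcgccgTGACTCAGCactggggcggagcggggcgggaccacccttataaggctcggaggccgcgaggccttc
GPX2, chr14:64942746-64942895, minus strand: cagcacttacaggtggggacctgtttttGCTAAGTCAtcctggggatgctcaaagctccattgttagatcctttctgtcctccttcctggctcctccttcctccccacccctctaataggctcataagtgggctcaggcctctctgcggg
KEAP1, chr19:10502772-10502921, minus strand: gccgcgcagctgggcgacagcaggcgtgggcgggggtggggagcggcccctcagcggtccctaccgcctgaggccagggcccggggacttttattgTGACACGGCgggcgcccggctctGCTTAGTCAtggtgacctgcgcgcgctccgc

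Promoter windows were found for 37 of the 44 listed genes, PRDX5 included, and there was no entry for GSS, GSR, MGST2, TXN2, PRDX1, PRDX6 and SOD1. The motif, searched on both strands of the 250 bases before each start, was present in 7 of the 37 member genes (18.9%) and in 13.2% of all 27305 genes with a window. It was present in 2 of 11 members that rose, in 0 of 5 that fell and in 5 of 20 measured members with no call, the other two being GSTA4 and GSTO1. In GCLM the match begins 34 bases before the start, and in GSTP1 66 bases before it. KEAP1 holds 2 matches, 1 on each strand, beginning 54 and 31 bases before its start. Elements further from the start are outside the windows searched here.

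The genes of glutathione synthesis and recycling held 3 rises among 4 members. GCLM encodes the modifier subunit of glutamate-cysteine ligase, which makes the catalytic subunit more efficient. Its log2 values were 13.50, 13.48 and 13.57 in sh-PRLR cells and 12.91, 12.85 and 12.83 in sh-Ctrl cells. The lowest sh-PRLR array was above the highest sh-Ctrl array by far more than the spread within either group, and the difference was 0.65 (1.57-fold, SE 0.05, limma adjusted p = 3.8e-05). The other probe sets of GCLM, 234986_at and 236140_at, rose by 0.88 and 0.59. GCLC, the catalytic subunit, read 12.88, 12.95 and 12.92 in sh-PRLR cells and 12.37, 12.38 and 12.37 in sh-Ctrl cells, a difference of 0.54 (1.45-fold, SE 0.04, limma adjusted p = 0.000105). Of the other probe sets of GCLC, 202922_at rose by 0.45, and 1555330_at was higher by 0.57 without passing.

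GSR, glutathione reductase, which returns oxidised glutathione to its reduced form, read 12.00, 11.95 and 12.04 in sh-PRLR cells and 11.21, 11.17 and 11.41 in sh-Ctrl cells. The groups were well apart, with a difference of 0.74 (1.67-fold, SE 0.07, limma adjusted p = 0.000229), and its other probe set, 205770_at, rose by 0.51. GSS, glutathione synthetase, which catalyses the last step of synthesis, did not move with them. Its values were 11.36, 11.52 and 11.33 in sh-PRLR cells and 11.48, 11.54 and 11.55 in sh-Ctrl cells, a difference of -0.12 without a call (limma adjusted p = 0.328), and the arrays of the groups overlapped.

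Among the 5 glutathione peroxidases, which use glutathione to reduce peroxides, 1 fell and none rose. GPX1, the ubiquitous cytosolic selenoenzyme, read 12.56, 12.55 and 12.51 in sh-PRLR cells and 12.86, 12.92 and 12.91 in sh-Ctrl cells. Every sh-PRLR array was below every sh-Ctrl array, by -0.35 (SE 0.05, limma adjusted p = 0.00133). GPX1 has 1 probe set, so no second reading of it was available. GPX4, which reduces lipid hydroperoxides in membranes and protects against ferroptosis, read 12.84, 12.89 and 12.88 in sh-PRLR cells and 12.95, 13.04 and 13.10 in sh-Ctrl cells. These arrays did not overlap either, but the difference of -0.16 did not pass (limma adjusted p = 0.0822). GPX8, an enzyme of the endoplasmic reticulum, and GPX3, a secreted plasma enzyme, were each lower by -0.13 with overlapping arrays (limma adjusted p = 0.333 and 0.571). Their dimmer probe sets, 228141_at of GPX8 and 214091_s_at of GPX3, were lower by -0.49 and -0.24. Neither of these sets passed, and their arrays did not overlap. GPX2, the gastrointestinal form, was the dimmest member, at 6.32, 7.10 and 6.82 in sh-PRLR cells and 6.98, 6.08 and 5.03 in sh-Ctrl cells. Its sh-Ctrl arrays scattered widely, with an SD of 0.97 (n = 3), and its difference, 0.72, was not called (limma adjusted p = 0.427).

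The cytosolic and mitochondrial glutathione S-transferases, which conjugate glutathione to electrophiles, had 1 rise and 1 fall among 8 members. GSTK1, a transferase of mitochondria and peroxisomes, read 10.73, 10.83 and 10.81 in sh-PRLR cells and 10.49, 10.46 and 10.47 in sh-Ctrl cells. All sh-PRLR arrays were higher, by 0.32 (SE 0.06, limma adjusted p = 0.0113), and the call was lost without sh-PRLR replicate 2 or sh-Ctrl replicate 2 (log2 differences 0.30 and 0.31). GSTM2, of the mu class, read 9.64, 9.68 and 9.57 in sh-PRLR cells and 10.12, 10.24 and 9.97 in sh-Ctrl cells. Its arrays did not overlap and it fell by 0.48 on the log2 scale (0.717-fold, SE 0.09, limma adjusted p = 0.00836). Its sole probe set is an _x_at set, a type that can bind related transcripts, and the mu class genes are close in sequence, so which of them gave this signal is uncertain. GSTM4, also of the mu class, was lower by -0.25 without passing (limma adjusted p = 0.0961), and GSTM3 by -0.07 (limma adjusted p = 0.362), both with every sh-PRLR array below every sh-Ctrl array. For GSTM3 the groups were barely apart, at 14.606 on the highest sh-PRLR array and 14.607 on the lowest sh-Ctrl array. Its other probe set, 235867_at, differed by 0.04 with overlapping arrays. GSTM1, from a list of neighbouring genes, fell by 0.50 on an _x_at set, with the same uncertainty as GSTM2.

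The other 4 transferases of this group did not pass and their arrays overlapped. GSTP1, the pi class enzyme abundant in many carcinomas, differed by 0.09 and GSTO1, an omega class enzyme with reductase activity, by -0.0041. GSTZ1, which acts in tyrosine breakdown, differed by 0.10 and GSTA4, which conjugates the lipid peroxidation product 4-hydroxynonenal, by 0.24. Of the microsomal enzymes, MGST1, a membrane-bound transferase and peroxidase, read 13.12, 13.08 and 12.97 in sh-PRLR cells and 12.69, 12.65 and 12.63 in sh-Ctrl cells. It rose by 0.40 (1.32-fold, SE 0.05, limma adjusted p = 0.00136), and the probe sets 224918_x_at and 1565162_s_at each rose by 0.41. Without _x_at and _s_at probe sets, MGST1 was read by 239001_at, which was higher by 0.62 and did not pass. The mean over all its probe sets, 0.51, was not called either (limma adjusted p = 0.334). That mean includes the dim 240688_at, at means of 3.18 in sh-PRLR and 2.48 in sh-Ctrl. It differed by 0.70 (SE 1.24) with overlapping arrays. MGST3 differed by 0.02, and MGST2, which can make leukotriene C4, by -0.24 with arrays that did not overlap; neither passed (limma adjusted p = 0.835 and 0.119).

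In the thioredoxin system the cytosolic pair rose. TXNRD1, the selenoenzyme that reduces thioredoxin with NADPH, read 14.80, 14.69 and 14.65 in sh-PRLR cells and 14.28, 14.30 and 14.42 in sh-Ctrl cells. All sh-PRLR arrays were above the sh-Ctrl arrays, by 0.38 (1.3-fold, SE 0.05, limma adjusted p = 0.00178). Its other probe set, 1561080_at, was dim, with means of 3.75 in sh-PRLR and 2.30 in sh-Ctrl, and was higher by 1.44 (SE 0.80) without passing. The mean of both, which includes this dim set, rose by 0.91. TXN, thioredoxin itself, read 14.70, 14.79 and 14.78 in sh-PRLR cells and 14.57, 14.53 and 14.65 in sh-Ctrl cells, a small rise of 0.18 (SE 0.04, limma adjusted p = 0.0353). The call of TXN was kept without sh-PRLR replicate 1 or sh-Ctrl replicate 3 and lost without any other array (differences 0.15 to 0.17). Its other probe set, 216609_at, differed by 0.15 without passing and with overlapping arrays, and the mean of both, 0.16, was not called (limma adjusted p = 0.134). The mitochondrial counterparts TXN2 and TXNRD2 differed by -0.15 and -0.02, with overlapping arrays, and did not pass (limma adjusted p = 0.591 and 0.974). A second probe set of TXN2, 209078_s_at, was higher by 0.10 without passing.

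TXNIP, which binds and inhibits thioredoxin and is induced by glucose, did not pass on any of its 3 probe sets, whose differences were unequal in size. The brightest, 201010_s_at, read 14.14, 14.08 and 14.06 in sh-PRLR cells and 14.03, 14.08 and 14.17 in sh-Ctrl cells, with a mean difference of 0.0015. Probe set 201008_s_at read 12.70, 12.33 and 12.47 in sh-PRLR cells and 11.85, 12.08 and 12.29 in sh-Ctrl cells, a difference of 0.42 (limma adjusted p = 0.0633 in the fit of single probe sets). The third, 201009_s_at, differed by 0.17 (limma adjusted p = 0.211). The arrays of the groups did not overlap on these last sets, sh-PRLR being higher, and overlapped on the brightest.

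**Figure D3:**
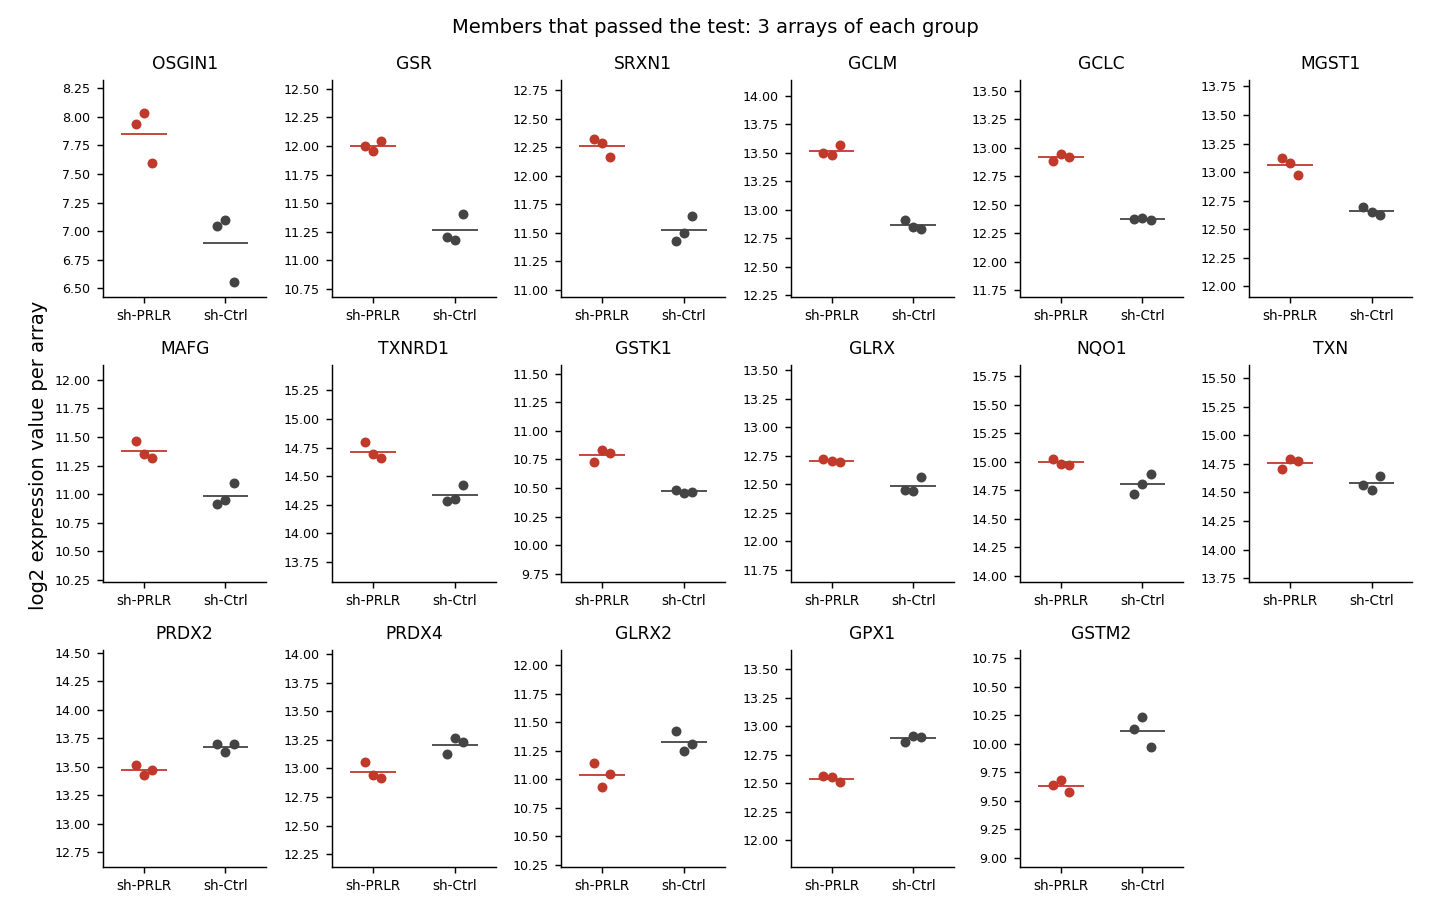
Log2 expression value on each of the 3 sh-PRLR arrays (red, left) and 3 sh-Ctrl arrays (black, right) for the 17 members that rose or fell, with the group mean as a line. Every panel spans the same number of log2 units; the groups do not overlap in any of the 17, and the difference of the group means is greatest in OSGIN1 and smallest in TXN, NQO1 and PRDX2.

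Peroxiredoxins reduce peroxides through a cysteine that can be overoxidised, and sulfiredoxin restores it. SRXN1, sulfiredoxin, read 12.32, 12.28 and 12.16 in sh-PRLR cells and 11.43, 11.50 and 11.64 in sh-Ctrl cells. The groups were apart by more than their spread, and SRXN1 rose by 0.73 (1.66-fold, SE 0.07, limma adjusted p = 0.000229), on 1 probe set. The peroxiredoxins themselves held 2 falls and no rise among 5 measured. PRDX4, the enzyme of the endoplasmic reticulum, read 13.05, 12.94 and 12.92 in sh-PRLR cells and 13.12, 13.26 and 13.23 in sh-Ctrl cells, a fall of -0.24 (SE 0.05, limma adjusted p = 0.0269). PRDX2, a cytosolic enzyme, read 13.51, 13.43 and 13.47 in sh-PRLR cells and 13.70, 13.63 and 13.70 in sh-Ctrl cells, a fall of -0.20 (SE 0.04, limma adjusted p = 0.0193). Both falls were small and less stable than the rise of SRXN1: the call of PRDX2 was kept without sh-PRLR replicate 1 and lost without any other array (differences -0.23 to -0.18). That of PRDX4 was kept without sh-PRLR replicate 1 or sh-Ctrl replicate 1 and lost without any other (differences -0.22 to -0.21). The other 3 probe sets of PRDX2 gave -0.05, 0.46 and -0.21, none passing, and the mean over its 4 probe sets was -0.0004.

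PRDX1, a cytosolic enzyme and NRF2 target, was higher on every sh-PRLR array, at 14.40, 14.49 and 14.45 in sh-PRLR cells and 14.30, 14.35 and 14.40 in sh-Ctrl cells. The groups were barely apart, and the mean difference of 0.10 did not pass (limma adjusted p = 0.214). PRDX3, the mitochondrial enzyme, and PRDX6, which uses glutathione, differed by -0.05 and 0.0008 with overlapping arrays. The second probe set of PRDX3, 209766_at, differed by 0.14 with overlapping arrays. That of PRDX6, 200845_s_at, differed by -0.12, with every sh-PRLR array below every sh-Ctrl array. Neither of these sets passed.

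Of the quinone reductases, NQO1, a flavoenzyme used as a classical reporter of NRF2 activity, rose on all 3 of its probe sets. The one with the highest mean, 210519_s_at, read 15.02, 14.98 and 14.97 in sh-PRLR cells and 14.72, 14.80 and 14.89 in sh-Ctrl cells, a rise of 0.19 (SE 0.05, limma adjusted p = 0.0341). This call was kept without sh-Ctrl replicate 3 and lost without any other array (differences 0.15 to 0.20). Probe sets 201468_s_at and 201467_s_at rose by 0.32 and 0.38 (limma adjusted p = 0.000779 and 0.00185 in the fit of single probe sets). The NQO1 values lie near the upper end of the scale, whose highest value was 15.53. NQO2, a related reductase, was higher on every sh-PRLR array by 0.17 without passing (limma adjusted p = 0.0943), and its dim probe set 237870_at was lower by -1.44 without passing.

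OSGIN1, an oxidative stress-induced growth inhibitor regulated by NRF2, had the largest difference among the members. It read 7.93, 8.03 and 7.60 in sh-PRLR cells and 7.04, 7.10 and 6.56 in sh-Ctrl cells. The groups did not overlap, although each scattered more than in the brighter members, and the rise was 0.96 (1.94-fold, SE 0.21, limma adjusted p = 0.0196). The call was lost without sh-PRLR replicate 1, sh-PRLR replicate 2 or sh-Ctrl replicate 3 (log2 differences 0.92, 0.87 and 0.78).

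Superoxide dismutases and catalase, which remove superoxide and hydrogen peroxide without glutathione or thioredoxin, held no call among 3. SOD1, the cytosolic dismutase, read 14.25, 14.31 and 14.31 in sh-PRLR cells and 14.32, 14.31 and 14.39 in sh-Ctrl cells, a difference of -0.05 (limma adjusted p = 0.563). CAT, catalase of peroxisomes, was lower by -0.07 and SOD2, the mitochondrial dismutase, by -0.16 (limma adjusted p = 0.51 and 0.298). For CAT and SOD2 every sh-PRLR array was below every sh-Ctrl array, and for SOD1 the arrays overlapped. The groups of CAT and SOD2 were barely apart. The highest sh-PRLR array and the lowest sh-Ctrl array were at 11.716 and 11.722 for CAT, and at 9.763 and 9.776 for SOD2. Further probe sets of CAT, 211922_s_at and the dim 215573_at, differed by -0.16 and 1.20 with overlapping arrays and did not pass. SOD2 was read here by 1566342_at alone, since 4 further probe sets carry a second gene symbol.

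The 2 glutaredoxins, which reduce mixed disulfides with glutathione, went opposite ways. GLRX, the cytosolic enzyme, read 12.72, 12.70 and 12.70 in sh-PRLR cells and 12.45, 12.44 and 12.56 in sh-Ctrl cells, a rise of 0.22 (SE 0.05, limma adjusted p = 0.0229). GLRX2, mainly mitochondrial, read 11.14, 10.93 and 11.04 in sh-PRLR cells and 11.43, 11.24 and 11.31 in sh-Ctrl cells, a fall of -0.29 (SE 0.07, limma adjusted p = 0.0359). Neither pair of groups overlapped. Leaving out arrays kept the call of GLRX without sh-PRLR replicate 1 or sh-Ctrl replicate 3 and lost it without any other (differences 0.20 to 0.23). Its second probe set, 209276_s_at, differed by 0.27 without passing, and the mean of both, 0.25, was not called (limma adjusted p = 0.0783). That of GLRX2 was kept without sh-PRLR replicate 1 and lost without any other (differences -0.33 to -0.24).

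Among NRF2 and its regulators, MAFG rose and the others did not pass. MAFG, a small MAF protein that pairs with NRF2 or BACH1 on DNA, read 11.47, 11.35 and 11.32 in sh-PRLR cells and 10.91, 10.95 and 11.09 in sh-Ctrl cells. Its groups were apart, with a rise of 0.39 (1.31-fold, SE 0.07, limma adjusted p = 0.00704), while its probe set 224466_s_at differed by 0.05 without passing. The mean of its probe sets, 0.22, was not called. NFE2L2, the NRF2 gene, read 13.25, 13.25 and 13.25 in sh-PRLR cells and 13.17, 13.09 and 13.13 in sh-Ctrl cells. The arrays did not overlap, yet the difference of 0.12 was small and did not pass (SE 0.04, limma adjusted p = 0.119). KEAP1, the adaptor that targets NRF2 for degradation, read 10.60, 10.61 and 10.41 in sh-PRLR cells and 10.66, 10.62 and 10.65 in sh-Ctrl cells, a difference of -0.11 (limma adjusted p = 0.475). BACH1, a repressor at the same DNA elements, read 10.62, 10.83 and 10.85 in sh-PRLR cells and 10.48, 10.68 and 10.61 in sh-Ctrl cells, a difference of 0.17 with overlapping arrays (limma adjusted p = 0.274). These are transcript levels, and NRF2 protein, which KEAP1 controls, was not measured. In RNA of whole cultures, a change in all cells and a change in the share of cells that express a gene cannot be told apart.

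**Figure D4:**
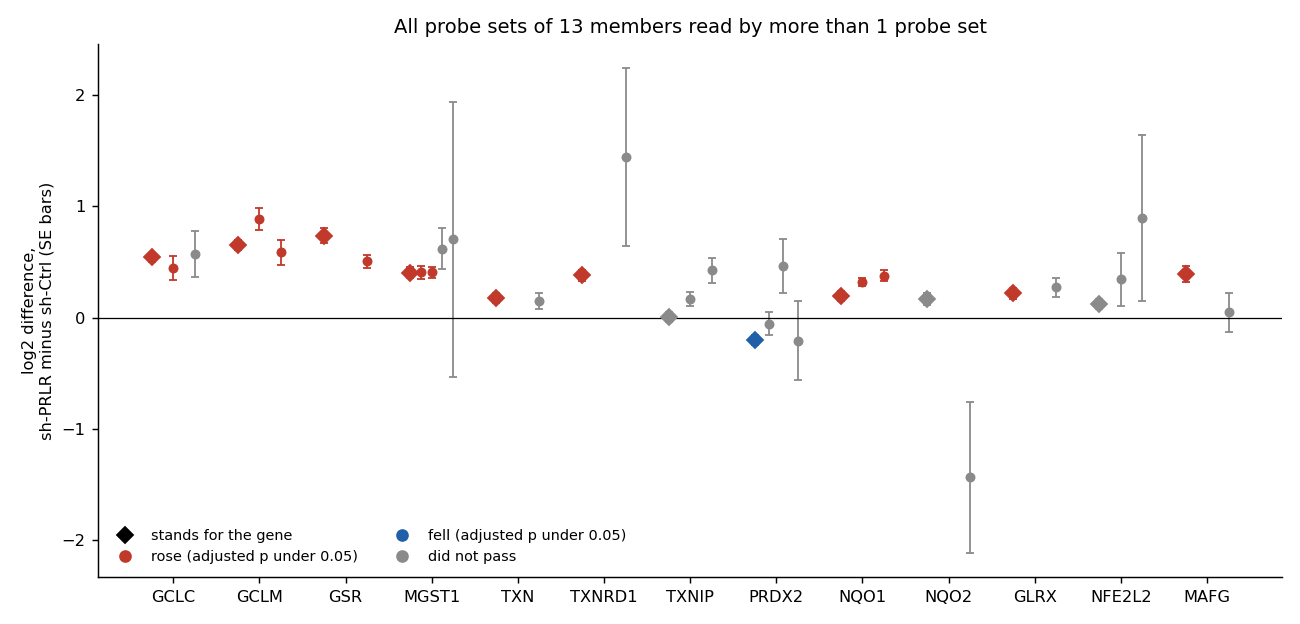
Log2 difference, sh-PRLR minus sh-Ctrl, with standard error, for every probe set of 13 members read by more than 1: the called members of that kind, and TXNIP, NQO2 and NFE2L2. Diamonds stand for the gene elsewhere in the text; those of GCLC, GCLM, GSR, MGST1 and NQO1 have further probe sets that rose, and the widest bars, in MGST1, TXNRD1, NQO2 and NFE2L2, belong to probe sets below the median gene level.

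Over all 84 probe sets of the members, 20 rose and 4 fell, in a fit of the 41091 probe sets that carry a single gene symbol, 2.17% of which rose and 2.5% of which fell. Of the 17 called members 10 were read by more than 1 probe set, and in 9 of these all probe sets had the same sign, PRDX2 being the exception. The other 7 called members had 1 probe set each.

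Neighbouring genes were described from 6 lists that exclude the members, by counts and medians. Beside these counts stand the shares over all genes, 3.34% for rises and 4.32% for falls. Among genes above the median gene level the shares were 6.43% and 8.17%. Of 17 measured genes of glutathione turnover and cystine supply 2 rose (11.8%) and 1 fell (5.88%), with a median log2 difference of 0.12. SLC7A11, the cystine transporter that supplies cysteine for glutathione, was at 13.95 ± 0.05 in sh-PRLR and 13.45 ± 0.12 in sh-Ctrl, and its partner chain SLC3A2 at 12.98 ± 0.05 in sh-PRLR and 12.74 ± 0.03 in sh-Ctrl (SD, n = 3 each). They rose by 0.50 and 0.24 (limma adjusted p = 0.000938 and 0.0111). GGT6, of the gamma-glutamyltransferase family, fell by 0.63 on the log2 scale (limma adjusted p = 0.0289).

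Of 14 genes of NADPH supply, which both glutathione reductase and thioredoxin reductase draw on, 4 rose (28.6%) and 2 fell (14.3%), with a median of 0.0016. TKT (0.47), TALDO1 (0.26) and PGD (0.27), enzymes of the pentose phosphate pathway, and ME1 (0.31), cytosolic malic enzyme, were the rises. MTHFD1, a folate enzyme (-0.26), and NADK, the cytosolic NAD kinase (-0.22), were the falls. Of 20 further NRF2 target genes 10 rose (50%) and none fell, with a median of 0.44, against -0.0013 over all genes. The 4 with the smallest p were AKR1C2 (1.30), AKR1C1 (1.18), HMOX1, heme oxygenase (1.25), and PIR (0.76). The aldo-keto reductases AKR1C1 and AKR1C2 resemble each other closely in sequence and were read by _x_at sets, so the share of each is uncertain. That these genes were higher was known when the list was written.

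Of 15 genes of NRF2 partners and turnover 3 rose (20%) and none fell, with a median of 0.04. MAFF, another small MAF protein, was at 12.55 ± 0.05 in sh-PRLR and 11.81 ± 0.12 in sh-Ctrl, a rise of 0.74 (limma adjusted p = 0.000162). SQSTM1, an autophagy receptor that sequesters KEAP1, rose by 0.53 and NFE2L1, a relative of NRF2, by 0.34. CUL3, the ubiquitin ligase scaffold that KEAP1 works with, differed by -0.06 (limma adjusted p = 0.551). Of 18 other thiol redox proteins 2 fell (11.1%) and none rose, with a median of -0.11: SESN1, a sestrin (-0.39), and MSRA, a methionine sulfoxide reductase (-0.28). That share is near the 8.17% that fell among genes above the median gene level, where 17 of the 18 lay. Of 16 other peroxidases, transferases and dismutases 2 rose (12.5%) and 1 fell (6.25%), with a median of 0.13. AIFM2, which regenerates coenzyme Q and protects against ferroptosis, rose by 0.36, GSTO2 rose by 0.24, and GSTM1 was the fall. In that list 7 of 16 genes lay above the median gene level, so its large differences among dim genes carry wide errors.

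**Figure D5:**
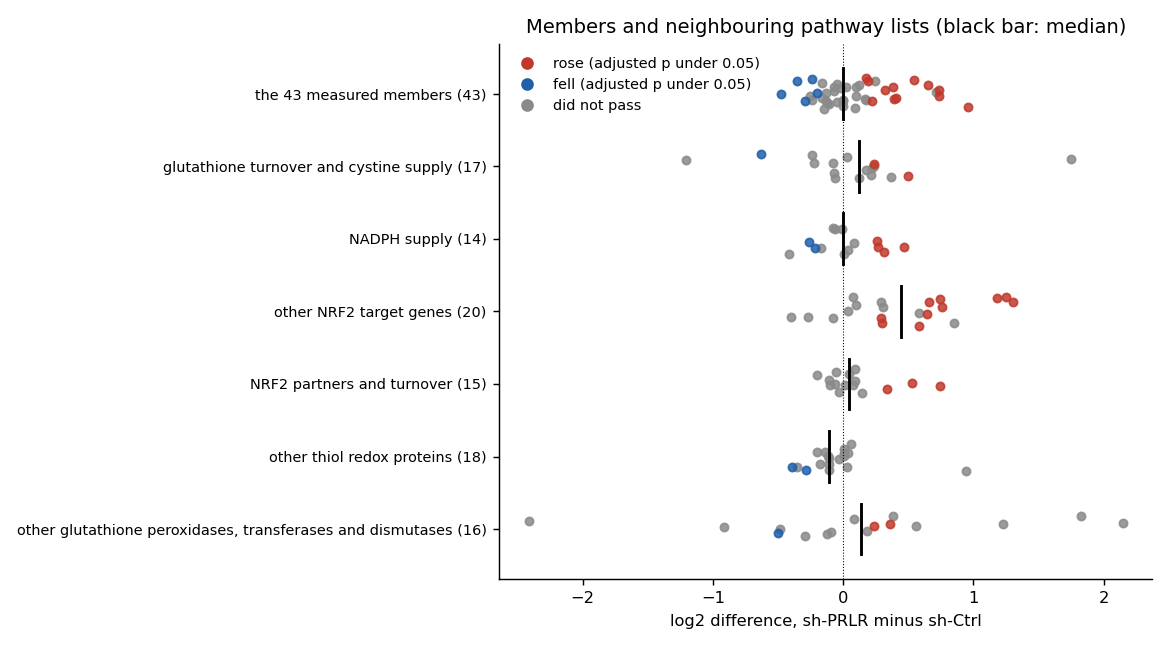
Log2 difference of each measured gene, sh-PRLR minus sh-Ctrl, in the 43 members and in 6 lists of neighbouring genes, with the number of measured genes in brackets and the median as a black bar. Red points rose, blue points fell and grey points did not pass; the median of the further NRF2 target genes is at 0.44 and those of the members and of NADPH supply are near 0.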

How the data were processed

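Affymetrix U133 Plus 2.0 arrays of 3 sh-PRLR and 3 sh-Ctrl samples were used. The authors deposited a log2 value for each probe set of each array. The submitters' processing notes name MAS5, RMA and affy, with no statement of role. On the linear scale the mean of each array with 2% trimmed at each end was 500, as global scaling gives, so no further normalisation was applied. The lowest value was -4.30 and the highest 15.53. Background correction and filters are not given in the sources used here, and the number of arrays limits the precision.

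The platform annotation gave 1 gene symbol to 41091 of 54675 probe sets, several to 1801 and none to 11777; the 62 controls, 6 of them with a symbol, were left out. The probe set with the highest mean stood for a gene. Tests used limma 3.58.1 with R 4.3.3 (lmFit, eBayes with trend and robust, two-sided, Benjamini-Hochberg over all genes), after tests on simulated data. The simulated noise depended on the level alone, as the trend setting assumes, so it cannot favour this setting over the default. Figures used Python 3.11.15 and matplotlib 3.10.9. Members, lists, markers, tests and the named genes (all members, and up to 4 called genes per direction and list) were chosen with earlier results of these data known. Correlations of deviations between arrays of the same replicate number were -0.06, 0.06 and -0.10, so the numbers were not taken as pairs. If the replicates came from 1 culture, p-values measure technical spread only.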

Additional observations from a re-analysis of the deposited data

How the results depend on the processing

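Member counts, 12 higher and 5 lower as reported, were 0 and 0 with limma's default settings, 5 and 1 with median centring, 8 and 2 with the mean over a gene's probe sets, and 8 and 3 of 36 tested without _x_at and _s_at probe sets. They were 12 and 6 with quantile normalisation or with the dimmest 40% of genes left out, and 12 and 4 with every probe set tested. Leaving out each array in turn gave 7 to 11 higher and 2 to 5 lower. With the replicate number as a block, 9 were higher and 4 lower. Calls on the 6 lists, 21 higher and 6 lower as reported, were 1 and 0 with default settings, 11 and 2 with median centring, and 11 and 2 without _x_at and _s_at probe sets. With the mean over probe sets 2 were lower, and 3 with the replicate block. Leaving out arrays gave 17 to 21 higher and 2 to 4 lower. Of all genes, 660 higher and 854 lower as reported, default settings called 2 and 2, median centring 143 and 361, the mean over probe sets 275 and 334, 567 were lower without _x_at and _s_at probe sets, and 445 were higher and 645 lower with the replicate block. Leaving out arrays gave 296 to 523 higher and 369 to 799 lower. Median centring made 28.4% of calls on all genes higher, in place of 43.6%, and 83.3% of calls on members, in place of 70.6%. The cause of these shifts was not tested.

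None of the 17 called members changed sign in any setting run, and GCLC, GCLM, GSR, SRXN1 and, where it could be read, GSTM2 lost the call only with default settings. GPX4 passed with quantile normalisation (-0.17, limma adjusted p = 0.0372) and without the dimmest genes (-0.16, limma adjusted p = 0.0483). Signs turned in 9 members without a call. With the mean over probe sets these were GSTO1 (0.0298), PRDX3 (0.0451), PRDX6 (-0.0593), NQO2 (-0.63) and CAT (0.32); without _x_at and _s_at probe sets GSTM3 (0.0439) and NQO2 (-1.44); with median centring MGST3 (-0.0114), TXNIP (-0.0322) and PRDX6 (-0.0329); and with quantile normalisation TXNRD2 (0.0107), TXNIP (-0.00537) and PRDX6 (-0.0188). Leaving out arrays gave values of either sign for GSTO1 (-0.0313 to 0.0293), TXNRD2 (-0.172 to 0.0694), TXNIP (-0.0298 to 0.0406) and PRDX6 (-0.0423 to 0.0394). Dim probe sets scattered most, which limits GPX2, TXNRD2 and OSGIN1.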

Other observations

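Members with selenium in the active site were set side by side after their values were seen, with no test. Of these 6 selenoproteins (GPX1, GPX2, GPX3, GPX4, TXNRD1 and TXNRD2), TXNRD1 rose and GPX1 fell, and differences ran from -0.35 to 0.72 with a median of -0.07.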
